A study of Mus musculus with 8 samples.

Results

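A set of 10 genes that carry signaling between the blood vessel wall and its growth factors was followed in the mouse heart with and without myocardial infarction (MI). They were Pecam1, Cdh5, Kdr, Flt1, Tek, Tie1, Vwf, Vegfa, Angpt1 and Angpt2, and each was taken by its gene name from the table of all genes. The table held 33249 genes, of which 14028 passed the filter on low values and were tested, and 10 of the 10 were among those tested.

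The study asked how loss of the mechanosensitive channel Piezo1 in cardiomyocytes affects the heart after MI. Poly(A) RNA from myocardium was sequenced in 8 libraries, 2 in each of 4 groups. The groups labelled CKO came from Piezo1 fl/fl mice that carried a tamoxifen-inducible Cre under the Myh6 promoter, which is active in cardiomyocytes, and the groups labelled fl/fl came from littermates with the floxed alleles and no Cre transgene. Deletion was induced at 4 weeks of age, and at 8 weeks of age the left anterior descending coronary artery was ligated for good (fl/fl-MI and CKO-MI) or a sham operation was done (fl/fl-Sham and CKO-Sham). The MI hearts were taken on day 42. Both sham groups and both MI groups therefore share the floxed alleles, Cre is present in the CKO groups only, and the labels do not say whether a library is a single animal, so that the p-values below measure the spread between libraries.

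Endothelial cells line every vessel of the heart and are held together by adhesion molecules such as PECAM1 and VE-cadherin (Cdh5). Vascular endothelial growth factor A (VEGF-A, encoded by Vegfa) is made largely by muscle and stromal cells and signals through the receptor VEGFR2 (Kdr), while VEGFR1 (Flt1) binds the same ligand tightly, signals weakly and also exists as a secreted decoy. Angiopoietin 1 (Angpt1) from perivascular and mural cells activates the receptor TIE2 (Tek) and keeps vessels quiescent, angiopoietin 2 (Angpt2) from endothelial cells opposes it in many settings, and TIE1 modulates TIE2, whereas von Willebrand factor (Vwf) is stored in endothelial granules and platelets and starts platelet adhesion.

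The libraries held between 73821747 and 88117573 counts. Sham libraries devoted 43.1% to 46.4% of their counts to mitochondrially encoded genes, against 19.9% to 24.2% after MI, and values are given in CPM (counts scaled to a common library size with TMM normalization) unless a sentence says otherwise. Library 2 of fl/fl-MI stood apart, with the atrial genes Bmp10 at 3834 CPM and Myl4 at 2810 CPM, against at most 18.8 and 48.0 CPM in each of the other libraries, and results that rest on it are given with and without it. Piezo1, the targeted gene, was at 72.2 and 82.0 CPM in fl/fl-Sham, 76.7 and 88.3 CPM in CKO-Sham, 53.5 and 64.8 CPM in fl/fl-MI, and in CKO-MI at 56.3 and 64.6 CPM. The libraries labelled CKO thus held as much of it as the fl/fl libraries, and because Piezo1 is expressed in other cells of the heart and was counted over the whole gene, this value does not check the deletion in cardiomyocytes. Markers of endothelium were plentiful in every library, with Cdh5 at 90.1 CPM or more. In bulk tissue, fewer endothelial cells and less RNA per endothelial cell cannot be told apart.

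Because the receptor genes were lower together after MI, the 250 bases before the start of Tek, Kdr, Flt1 and Vegfa are shown as a view of the promoters they are read from. They are RefSeq sequences of the build GRCm38.p6, which had an entry for 5 of the 10 genes, and they are written 5′ to 3′ on the gene's own strand. Capitals mark GGAA or its reverse complement TTCC, the core bound by ETS factors, the family to which the endothelial regulators ERG and FLI1 belong.
Tek: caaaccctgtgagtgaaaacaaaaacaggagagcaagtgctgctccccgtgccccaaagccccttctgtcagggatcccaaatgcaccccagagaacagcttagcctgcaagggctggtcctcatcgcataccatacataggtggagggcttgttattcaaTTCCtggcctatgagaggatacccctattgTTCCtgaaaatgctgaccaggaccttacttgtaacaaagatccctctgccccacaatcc
Kdr: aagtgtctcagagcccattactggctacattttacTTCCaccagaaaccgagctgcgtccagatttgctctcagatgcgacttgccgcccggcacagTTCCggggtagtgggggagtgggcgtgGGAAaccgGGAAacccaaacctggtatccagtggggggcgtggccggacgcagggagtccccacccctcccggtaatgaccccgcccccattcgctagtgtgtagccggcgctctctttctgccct
Flt1: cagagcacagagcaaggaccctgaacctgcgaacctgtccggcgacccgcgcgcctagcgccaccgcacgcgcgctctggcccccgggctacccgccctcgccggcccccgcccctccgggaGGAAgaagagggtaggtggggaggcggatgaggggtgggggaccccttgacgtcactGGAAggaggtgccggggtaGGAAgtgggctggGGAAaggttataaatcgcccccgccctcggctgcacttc
Vegfa: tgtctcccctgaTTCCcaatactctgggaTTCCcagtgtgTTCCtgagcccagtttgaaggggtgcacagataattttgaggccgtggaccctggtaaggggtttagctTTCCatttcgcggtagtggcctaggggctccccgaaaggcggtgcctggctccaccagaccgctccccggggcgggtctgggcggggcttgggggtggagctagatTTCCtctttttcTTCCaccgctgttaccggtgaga
The windows lie at chr4:94739039-94739288 on the plus strand for Tek, and on the minus strand at chr5:75978456-75978705 for Kdr, chr5:147726012-147726261 for Flt1 and chr17:46032378-46032627 for Vegfa. The core was found 2 times for Tek, 4 times for Kdr, 4 times for Flt1 and 6 times for Vegfa, but it is short and 93.4% of 32851 promoters of this length held it, with a median of 3 per promoter. The letters ACGTG or CACGT, a form of the core of a hypoxia response element, were in none of the 4 windows and in 16.6% of all promoters. They did occur 1 time in a second Vegfa entry (chr17:46025164-46025413), which lies within the annotated gene and is not shown. The Tie1 entry is not shown either, since 212 of its 250 bases lie within the annotated gene. It held the ETS core 7 times and ACGTG or CACGT 0 times. The other form of the hypoxia core, GCGTG or CACGC, was not counted, and it does occur in the Kdr and Flt1 windows shown. GATA or TATC occurred in the windows of Tek, Kdr and Vegfa, and in 53.6% of all promoters. The Flt1 window was rich in G and C at 70.4%, against 51.2% for Tek and a median of 52.4% over all promoters.

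Per unit of length, the junction gene Cdh5 was the most abundant of the 10 transcripts in sham hearts, at 65.2 ± 2.7 FPKM (fragments scaled by transcript length and library size, SD, n = 4), followed by Vegfa at 51.0 ± 1.6, Pecam1 at 44.6 ± 2.85, Tie1 at 41.0 ± 4.74, Kdr at 30.8 ± 0.896, Tek at 22.5 ± 2.04 and Flt1 at 16.1 ± 0.377 FPKM. Vwf was at 7.38 ± 4.48 FPKM, and the angiopoietins were lowest, with Angpt1 at 2.41 ± 0.385 and Angpt2 at 1.13 ± 0.168 FPKM. Among neighbors in this order, the ranges of Pecam1 and Tie1 overlapped and the others did not. In the MI libraries the ligand Vegfa stood first at 63.7 ± 12.7 FPKM, ahead of Pecam1 at 35.4 ± 6.46 and Cdh5 at 34.2 ± 4.57, whose ranges overlapped. Tie1, Kdr, Tek, Angpt1, Vwf and Flt1 then lay between 19.2 and 9.09 FPKM, each overlapping the next, with Angpt1 at 10.2 ± 13.6 FPKM, and at 3.44 ± 0.936 (SD, n = 3) and below Vwf and Flt1 without library 2 of fl/fl-MI, and Angpt2 was lowest at 2.1 ± 0.486 FPKM. The order of levels thus had the junction gene Cdh5 first in sham hearts and the ligand Vegfa first after MI. Vegfa was above the receptors Tie1, Kdr, Tek and Flt1 in both.

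After MI, with genotypes averaged, the 6 genes of the endothelial junction and of the receptors were lower, namely Pecam1, Cdh5, Kdr, Flt1, Tek and Tie1, and 0 of the 10 were called higher. On TMM-scaled counts 6 of 10 had an adjusted p below 0.05 in the lower direction (edgeR quasi-likelihood test, Benjamini-Hochberg over all genes tested), where 18.3% of all tested genes were called lower and 22.0% higher. Scaled to TPM (FPKM rescaled to the same sum in every library), Pecam1 and Tek did not keep this direction, as described with the scalings. For each of the 6, all 4 MI libraries lay below all 4 sham libraries in CPM, which held for 19.5% of tested genes. In the deposited FPKM this held for Cdh5, Kdr, Flt1 and Tie1, while Pecam1 and Tek overlapped, and the share of all tested genes was not counted. The median log2 fold change of the 10 was -0.97, against 0.035 over all tested genes. Neither the ligands Vegfa, Angpt1 and Angpt2 nor Vwf passed the test.

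**Figure D1:**
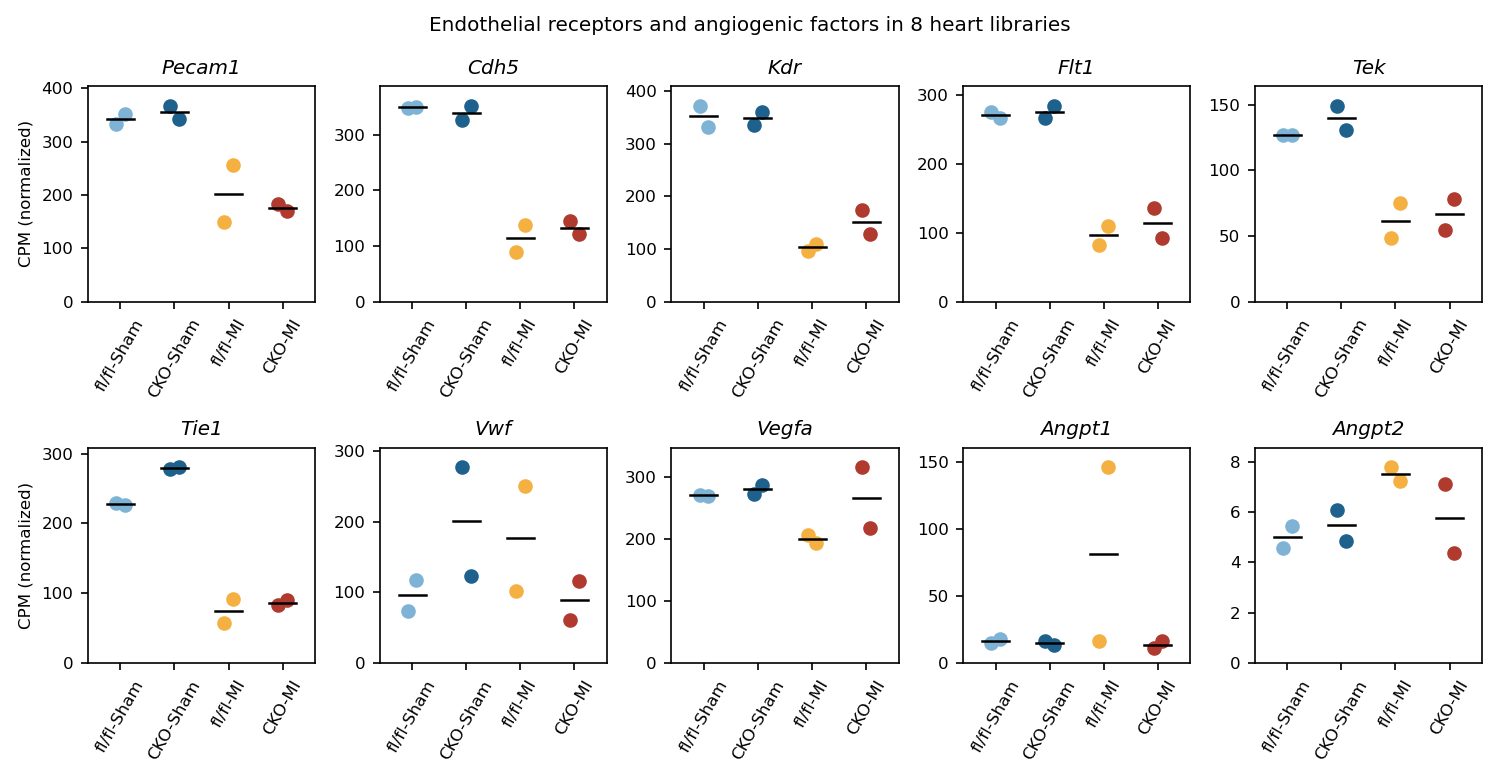
Normalized CPM of each of the 10 genes (vertical axis, linear from 0) in the 8 libraries by group, with 1 point per library and a bar at the mean of the 2 libraries. The 6 junction and receptor genes lie lower in all 4 MI libraries than in all 4 sham libraries, while Angpt1 is at 146 CPM in library 2 of fl/fl-MI and at most 18.1 CPM elsewhere.

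Pecam1 (ENSMUSG00000020717, chr11:106654217-106750628), an adhesion molecule of endothelial contacts, platelets and leukocytes, was at 334 and 351 CPM in fl/fl-Sham and at 368 and 343 CPM in CKO-Sham. After MI it was at 148 and 257 CPM in the fl/fl-MI libraries and at 184 and 169 CPM in the CKO-MI libraries. The MI libraries were all below the sham libraries in CPM, and the highest of them was library 2 of fl/fl-MI. In FPKM that library, at 44.8, lay within the sham range of 41.3 to 47.4. The mean went from 348.9 ± 14.4 to 189.6 ± 47.2 CPM (SD, n = 4), a log2 fold change of -0.88 (SE 0.179, edgeR adjusted p = 0.00874). Cdh5 (ENSMUSG00000031871, chr8:104101625-104144511), the cadherin of endothelial adherens junctions, was at 349 and 350.1 CPM in fl/fl-Sham, 326 and 353 CPM in CKO-Sham, 90.1 and 138 CPM in fl/fl-MI libraries, and 144 and 121 CPM in CKO-MI libraries. The groups were well apart, the highest MI library being far below the lowest sham library. Cdh5 was 2.8-fold lower, with a log2 fold change of -1.49 (SE 0.159, edgeR adjusted p = 0.00106).

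Kdr (ENSMUSG00000062960, chr5:75932827-75978458), the main signaling receptor for VEGF-A, was at 372 and 332 CPM in fl/fl-Sham and 335 and 361 CPM in CKO-Sham. It was at 96.8 and 109.9 CPM in the fl/fl-MI libraries and at 175 and 129 CPM in the CKO-MI libraries, so that the MI libraries were all below the sham libraries and those of fl/fl-MI lay lowest. Over both genotypes Kdr was 2.8-fold lower after MI, with a log2 fold change of -1.48 (SE 0.136, edgeR adjusted p = 0.000739), which was the smallest adjusted p among the 10 genes. Flt1 (ENSMUSG00000029648, chr5:147561604-147726011) was at 276 and 267 CPM in fl/fl-Sham, 267 and 285 CPM in CKO-Sham, 82.7 and 110.4 CPM in fl/fl-MI libraries, and 136 and 93.1 CPM in CKO-MI libraries. No MI library reached the sham range. The log2 fold change of Flt1 was -1.38 (SE 0.161, edgeR adjusted p = 0.00131).

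Flt1 makes a membrane receptor and shorter secreted forms from the same gene, and the table of transcripts held 6 entries for it. The long form (ENSMUST00000031653), with 30 exons and 1333 codons, took 64.4% to 68.8% of the summed transcript FPKM in sham libraries and 62.7% to 75.8% in MI libraries. The shorter form (ENSMUST00000110529), with 13 exons and 688 codons, took 28.9% to 33.3% and 22.9% to 35.2%. The shares of both forms overlapped between sham and MI libraries. In level, the long form was at 21.1 to 23.0 FPKM in sham and 10.2 to 14.8 FPKM in MI libraries, and the short form at 9.63 to 10.9 and 4.03 to 7.25 FPKM, so each form was lower after MI without overlap. These are estimates from reads that the forms share, and no test was made on them.

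Tek (ENSMUSG00000006386, chr4:94739289-94874976), the angiopoietin receptor TIE2, was at 127 and 127 CPM in fl/fl-Sham, 149 and 131 CPM in CKO-Sham, 48.3 and 75.2 CPM in fl/fl-MI libraries, and 54.7 and 78.4 CPM in CKO-MI libraries. The MI libraries again lay below the sham libraries in CPM, with replicates of each MI group spread more widely than those of sham. In FPKM library 2 of CKO-MI, at 21.1, lay within the sham range of 20.7 to 25.5. The log2 fold change of Tek was -1.06 (SE 0.181, edgeR adjusted p = 0.00489). Its partner Tie1 (ENSMUSG00000033191, chr4:118471191-118490061) was at 229.6 and 226 CPM in fl/fl-Sham, 278 and 281 CPM in CKO-Sham, 57.9 and 91.5 CPM in fl/fl-MI libraries, and 82.8 and 89.7 CPM in CKO-MI libraries. Sham and MI libraries were far apart, and within sham hearts both libraries labelled CKO were above both fl/fl libraries. Tie1 was 3.14-fold lower after MI, with a log2 fold change of -1.65 (SE 0.157, edgeR adjusted p = 0.000765), the farthest from 0 among the 10 genes.

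Vwf (ENSMUSG00000001930, chr6:125546774-125686679), the adhesive glycoprotein of endothelial storage granules, varied widely between libraries of the same group. It was at 74.3 and 118 CPM in fl/fl-Sham, 278 and 124 CPM in CKO-Sham, 102 and 251 CPM in fl/fl-MI libraries, and 61.5 and 117 CPM in CKO-MI libraries. The high libraries were library 1 of CKO-Sham and library 2 of fl/fl-MI, and sham and MI ranges overlapped. The log2 fold change was -0.15 (SE 0.397, edgeR adjusted p = 0.787), -0.54 without library 2 of fl/fl-MI (edgeR adjusted p = 0.232) and 0.20 without library 1 of CKO-Sham (edgeR adjusted p = 0.748). The same 2 libraries were highest for Npr3, a receptor enriched in endocardium, at 104.5 and 212.6 CPM against 25.8 to 40.8 CPM in the other 6, a gene singled out after its values were seen. The other 2 endocardial markers, Nfatc1 and Cytl1, summed to 49.4 and 64.9 CPM there and to 31.0 to 59.2 CPM in the others, so they did not set both libraries apart. Platelet markers summed to 11.3 to 16.1 CPM in sham and 13.7 to 34.0 CPM in MI libraries, with Gp1bb, Gp9 and Gp6 below the filter. Their part in the level of Vwf was not tested.

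Vegfa (ENSMUSG00000023951, chr17:46016993-46032369), the ligand of Kdr and Flt1, was even across sham hearts, at 271 and 269.7 CPM in fl/fl-Sham and 273 and 287 CPM in CKO-Sham. After MI it was at 207 and 194 CPM in the fl/fl-MI libraries and at 316 and 217 CPM in the CKO-MI libraries. Both fl/fl-MI libraries were below every sham library, whereas CKO-MI had 1 library above and 1 below the sham range. The log2 fold change with genotypes averaged was -0.25 (SE 0.139, edgeR adjusted p = 0.187) and did not pass the test, but it was -0.43 without library 1 of CKO-MI (edgeR adjusted p = 0.0306).

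Splicing of Vegfa gives proteins of different length that differ in how firmly they bind to heparan sulfate in the matrix, and 10 transcripts were listed. The main coding form (ENSMUST00000071648, 368 codons) took 42.2% to 53.8% of the summed transcript FPKM in sham and 51.0% to 55.0% in MI libraries. A form with 24 codons more (ENSMUST00000142351) took 8.71% to 15.0% and 10.3% to 18.7%, and a short form (ENSMUST00000024747, 146 codons) 3.16% to 6.65% and 3.52% to 9.57%. The shares of these coding forms overlapped between sham and MI. A pair of retained-intron transcripts took a smaller share after MI without overlap, with ENSMUST00000133605 at 14.4% to 17.6% in sham and 11.3% to 13.2% in MI, and ENSMUST00000142321 at 7.93% to 9.46% and 5.56% to 6.77%. No test was made on these shares.

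Angpt1 (ENSMUSG00000022309, chr15:42424723-42676977), the activating ligand of TIE2, was at 14.7 and 18.1 CPM in fl/fl-Sham, 16.7 and 13.4 CPM in CKO-Sham, 16.3 and 146 CPM in fl/fl-MI libraries, and 11.3 and 16.3 CPM in CKO-MI libraries. All libraries but library 2 of fl/fl-MI lay in a narrow range, and that library is the one with high atrial genes. The log2 fold change was 1.09 (SE 0.579, edgeR adjusted p = 0.171), and -0.068 without that library (edgeR adjusted p = 0.766). With the other fl/fl-MI library left out instead, so that the high library alone stood for its group, the value was 1.50 (edgeR adjusted p = 0.000418). The atrial genes and Angpt1 were high together in that library, and their part in its level was not tested. Angpt2 (ENSMUSG00000031465, chr8:18690263-18741562), the context-dependent antagonist, was low throughout, at 4.55 and 5.43 CPM in fl/fl-Sham, 6.06 and 4.87 CPM in CKO-Sham, 7.78 and 7.24 CPM in fl/fl-MI libraries, and 7.10 and 4.39 CPM in CKO-MI libraries. Both fl/fl-MI libraries were above every sham library, but CKO-MI spanned the sham range, and the log2 fold change of 0.33 (SE 0.203, edgeR adjusted p = 0.23) did not pass the test.

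Within each genotype, the same direction held for the junction and receptor genes on TMM-scaled counts. In fl/fl hearts 5 of the 10 were called lower, where 8.45% of all tested genes were, and 0 were called higher, where 10.1% were. These were Kdr at a log2 fold change of -1.77, Cdh5 at -1.62, Tie1 at -1.61, Flt1 at -1.49 and Tek at -1.04, while Pecam1 was at -0.76 (edgeR adjusted p = 0.0771) and at -1.21 without library 2 of fl/fl-MI (edgeR adjusted p = 0.00258). In CKO hearts 6 of the 10 were called lower, where 11.9% of all tested genes were, and 0 higher, where 12.8% were. They were led by Tie1 at -1.70, Cdh5 at -1.35, Flt1 at -1.27, Kdr at -1.20, Tek at -1.07 and Pecam1 at -1.01. Vegfa was also lower in both fl/fl-MI than in both fl/fl-Sham libraries, so that 7 of the 10 were lower without overlap, where 29.5% of all tested genes were, and 1, Angpt2, was higher, where 32.5% were. In CKO hearts 7 were lower without overlap, Vwf among them, where 35.8% of all tested genes were, and 0 were higher, where 36.4% were. In FPKM, Pecam1 and Vegfa overlapped in fl/fl hearts, and Vwf and Angpt1 were higher without overlap, as Angpt2 was. In CKO hearts Vwf overlapped in FPKM, and Vegfa and Angpt2 were higher without overlap. On log2(FPKM + 1) the median log2 fold change of all tested genes was itself 0.42 in fl/fl and 0.39 in CKO hearts. The share of all tested genes without overlap was not counted in FPKM. The counts of calls within a genotype needed both sham libraries. Without library 1 or 2 of fl/fl-Sham, 0 and 1 of the 10 were called lower in fl/fl hearts, and without library 1 or 2 of CKO-Sham 0 and 1 were called lower in CKO hearts. The log2 fold change of Kdr was then -1.68 and -1.85 in fl/fl hearts, and that of Tie1 -1.70 and -1.69 in CKO hearts. With genotypes averaged the 6 genes stayed called lower when any 1 of the 8 libraries was left out.

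Vwf had opposite signs in the 2 genotypes, at 0.87 in fl/fl hearts (edgeR adjusted p = 0.306) and -1.17 in CKO hearts (edgeR adjusted p = 0.171), neither past the test. It was at 0.081 in fl/fl hearts without library 2 of fl/fl-MI (edgeR adjusted p = 0.922) and at -0.47 in CKO hearts without library 1 of CKO-Sham (edgeR adjusted p = 0.675). The interaction of genotype and MI for Vwf was -2.04 (SE 0.803, edgeR adjusted p = 0.574), and -1.25 without library 2 of fl/fl-MI (edgeR adjusted p = 0.442). For Angpt1 the interaction was -2.44 (edgeR adjusted p = 0.61) and -0.11 without that library. For Kdr it was 0.57 (SE 0.267, edgeR adjusted p = 0.609), from changes of -1.77 in fl/fl and -1.20 in CKO hearts. The interaction was called for 0 of the 10 genes, as it was for 0.0% of all genes, and at an unadjusted p below 0.05 it held for 1 of the 10, Vwf, against 8.49% of all tested genes. DESeq2 also called 0 of the 10, and 0.952% of all genes.

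**Figure D2:**
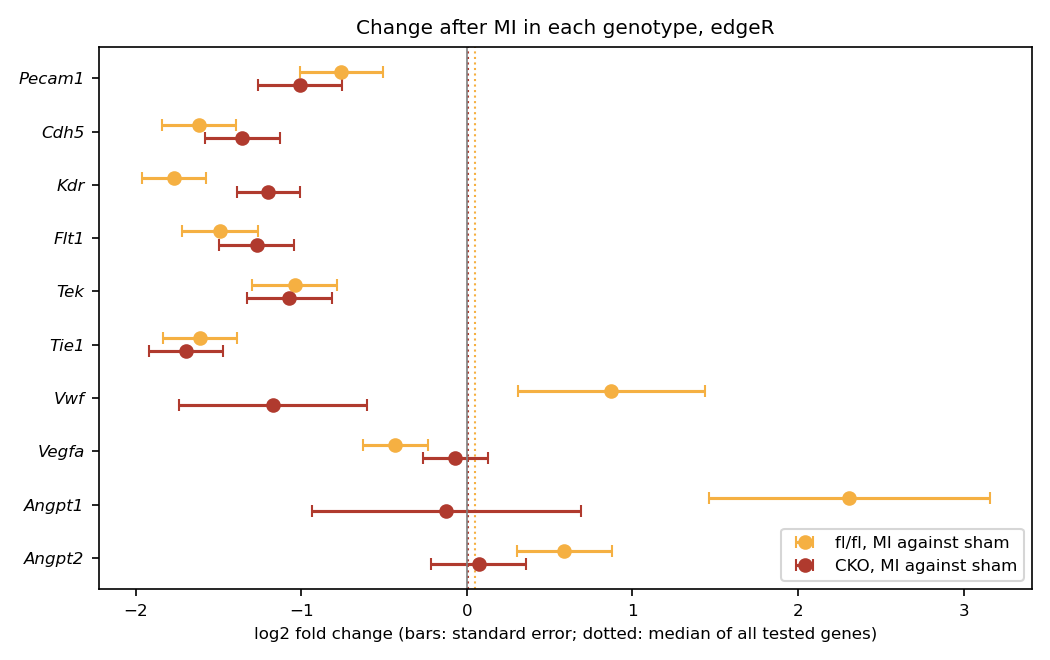
Log2 fold change after MI (horizontal axis) in fl/fl hearts and in CKO hearts for each gene, as points with bars of 1 standard error from edgeR, and dotted lines at the median of all tested genes in each genotype. The 6 junction and receptor genes lie between -0.76 and -1.77 in both genotypes on this scaling, Vwf lies on either side of 0, and Angpt1 has the widest error.

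The comparison between genotypes after MI, the question of the study, gave 0 calls among the 10 genes, and 0.0% of all tested genes were called. At an unadjusted p below 0.05, 2 of the 10 differed, against 8.31% of all tested genes. DESeq2 also called 0 of the 10, and 1.48% of all genes. At an unadjusted p below 0.05 the genes were Kdr, higher in CKO-MI by a log2 value of 0.55 (SE 0.189, edgeR adjusted p = 0.556), and Angpt1, lower by a log2 value of -2.56 (SE 0.854, edgeR adjusted p = 0.556). Both Kdr libraries of CKO-MI were above both of fl/fl-MI, whereas the Angpt1 value was -0.23 without library 2 of fl/fl-MI (edgeR adjusted p = 0.795). Vegfa was higher in both CKO-MI libraries, with a log2 difference of 0.41 (SE 0.197, edgeR adjusted p = 0.639), and Angpt2 was lower in both, with -0.39 (SE 0.286, edgeR adjusted p = 0.744). In all, 2 of the 10 genes were higher and 1 was lower without overlap, where 14.5% and 15.5% of all tested genes were. The remaining receptors differed little, with Flt1 at 0.25, Cdh5 at 0.22, Tie1 at 0.21, Tek at 0.11 and Pecam1 at -0.20, standard errors being 0.217 to 0.254. Differences of this size could not be told from 0 with 2 libraries a group.

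In sham hearts 0 of the 10 genes were called between the libraries labelled CKO and fl/fl, where 0.00713% of all tested genes were called, and 0 had an unadjusted p below 0.05, where 3.89% did. DESeq2 also called 0 of the 10, and 0.242% of all genes. Tek, Tie1, Vwf and Vegfa were higher in both CKO-Sham libraries than in both fl/fl-Sham libraries, 4 of 10 where 23.2% of all tested genes were. The log2 difference was 1.06 for Vwf (SE 0.568) and 0.29 for Tie1 (SE 0.217), and for the other 8 genes it lay between -0.12 and 0.14. The high Vwf value was that of library 1 alone.

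Ratios between a pair of these genes within a library do not depend on how libraries are scaled to each other, so 7 ratios of FPKM were compared between the 4 MI and the 4 sham libraries. The ligand to receptor ratio Vegfa to Kdr was 1.53, 1.71, 1.71 and 1.67 in the sham libraries and 4.51, 3.72, 3.80 and 3.55 in the MI libraries. The groups did not overlap in either genotype, and the ratio was 2.34-fold higher after MI (exact two-sided permutation p = 0.0286, adjusted over the 7 ratios 0.0667). Pecam1 to Cdh5 was 0.646 to 0.76 in sham and 0.858 to 1.26 in MI libraries, 1.51-fold higher, and Tie1 to Tek was 1.71 to 2.06 in sham and 1.1 to 1.45 in MI libraries, 1.5-fold lower. For both the exact permutation p was also 0.0286 and the adjusted value 0.0667. That is the smallest p that 4 against 4 libraries allow. These 3 of the 7 ratios did not overlap, and 0 of the 7 passed after adjustment.

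The other 4 ratios overlapped between sham and MI. Flt1 to Kdr, the decoy receptor against the signaling one, was 0.495 to 0.539 in sham and 0.483 to 0.672 in MI libraries (exact permutation p = 0.514, adjusted 0.72). Kdr to Cdh5 was 0.441 to 0.497 and 0.371 to 0.563 (exact permutation p = 0.943, adjusted 0.943). Vwf to Cdh5 was 0.0557 to 0.222 in sham and 0.111 to 0.477 in MI libraries (exact permutation p = 0.0571, adjusted 0.1). Angpt2 to Angpt1, the balance of the TIE2 ligands, was 0.422 to 0.511 in sham and 0.0697 to 0.884 in MI libraries (exact permutation p = 0.857, adjusted 0.943), and its lowest value was that of library 2 of fl/fl-MI.

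**Figure D3:**
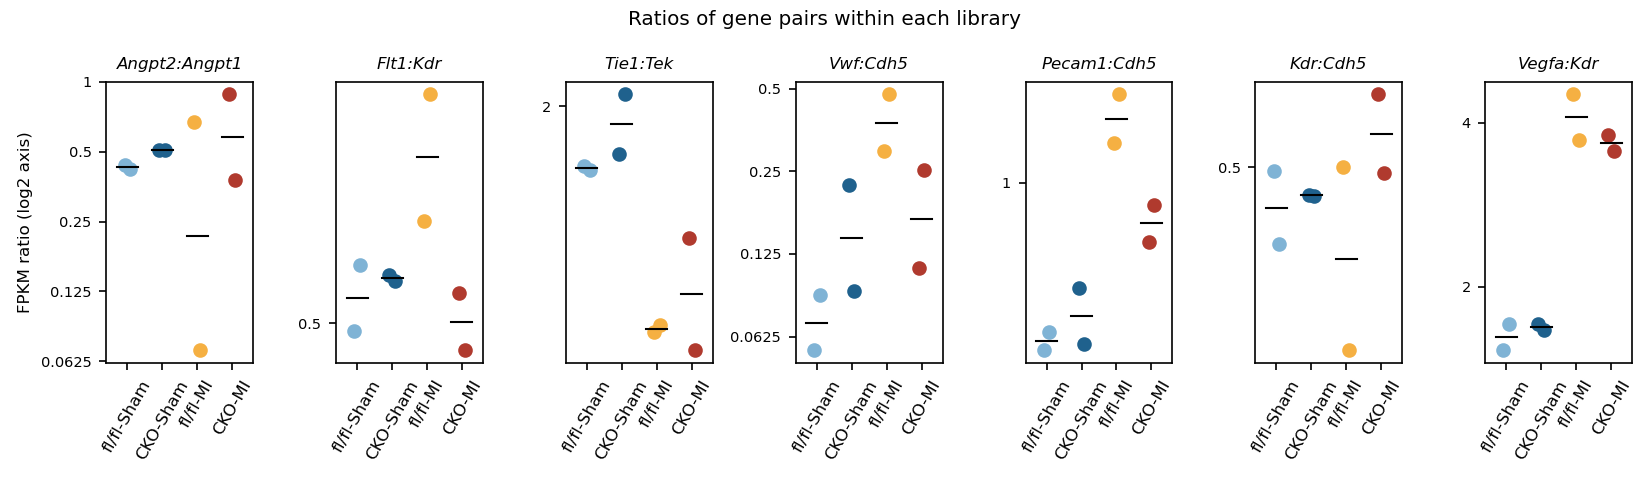
FPKM ratio of 7 gene pairs within each library (vertical axes on a log2 scale, each panel with its own range), with 1 point per library and a bar at the geometric mean of the 2 libraries of a group. Vegfa to Kdr lies between 1.53 and 1.71 in sham and between 3.55 and 4.51 in MI libraries, and Angpt2 to Angpt1 reaches its lowest value of 0.0697 in library 2 of fl/fl-MI.

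The size of the fall depended on the scaling between sham and MI libraries. The median log2 fold change of all tested genes was 0.035 with TMM, 0.41 on the deposited FPKM and 0.92 when FPKM was rescaled to TPM. On log2(FPKM + 1), tested with limma, 5 of the 10 genes stayed called lower, namely Tie1 at -1.07, Cdh5 at -0.92, Kdr at -0.89, Flt1 at -0.77 and Tek at -0.49, and Pecam1 was at -0.34 (limma adjusted p = 0.0801). On log2(TPM + 1), 3 stayed called lower, with Tie1 at -0.52, Cdh5 at -0.36 and Kdr at -0.34, while Flt1 was at -0.25 (limma adjusted p = 0.0876) and Tek and Pecam1 were at 0.052 and 0.22. Vegfa, Angpt1 and Angpt2 were called higher on that scale, at 0.86, 1.63 and 1.04, where 76.7% of all tested genes were called higher and 1.98% lower. Angpt2 was also called higher on FPKM, at 0.54 (limma adjusted p = 0.00916), where 50.1% of all tested genes were called higher and 5.97% lower. These scales add 1 before the logarithm, which understates changes of the low genes.

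Set against the median gene, the 6 junction and receptor genes kept their sign. Tie1 was -1.69, -1.48 and -1.44 relative to that median with TMM, FPKM and TPM, Cdh5 -1.52, -1.33 and -1.28, Kdr -1.52, -1.29 and -1.26, and Flt1 -1.42, -1.18 and -1.17. Tek was -1.09, -0.90 and -0.86 and Pecam1 -0.92, -0.75 and -0.69. All 6 thus lay below the median gene under each of the 3 scalings. The scalings differ mainly by a factor per library, which subtracting the median largely takes out. Their agreement here is therefore not separate evidence. Vegfa was -0.29, -0.11 and -0.051 and Vwf -0.18, -0.071 and -0.034 relative to the same median, Angpt2 was 0.30, 0.13 and 0.13, and Angpt1 was 1.06, 0.67 and 0.71.

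**Figure D4:**
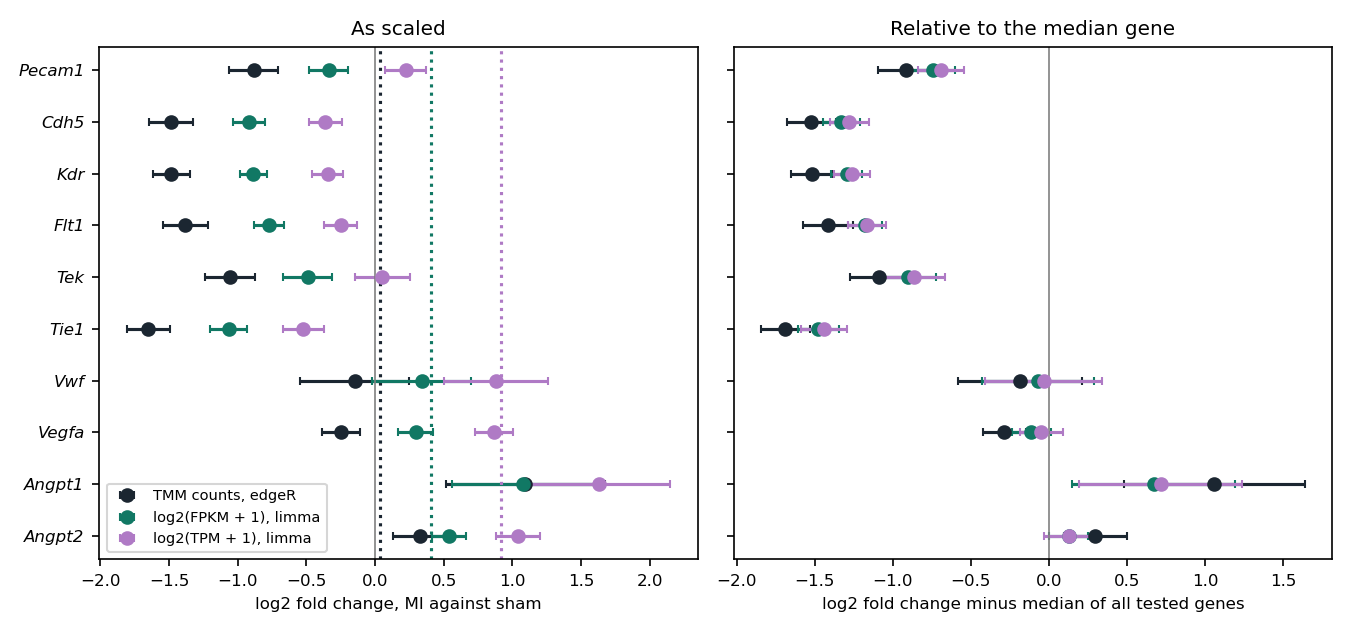
Log2 fold change after MI with genotypes averaged (horizontal axes) for each gene under 3 scalings, with bars of 1 standard error, as scaled on the left with dotted lines at the median of all tested genes, and minus that median on the right. On the left Pecam1 goes from -0.88 with TMM to 0.22 with TPM, and on the right it goes from -0.92 to -0.69.

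Other endothelial genes and genes of the same pathways were read from lists, with the values for MI against sham and genotypes averaged on TMM-scaled counts. The counts of genes that fell or rose, here and in the lists below, are calls. Among all tested genes 18.3% were called lower and 22.0% higher. Of 26 other pan-endothelial genes, 21 fell and 1 rose, with a median log2 fold change of -1.19. They included the secreted factor Egfl7 at -2.01 (edgeR adjusted p = 0.000381) and the adaptor She at -1.25 (edgeR adjusted p = 0.000587). Plvap, which forms the diaphragms of fenestrae and is low in the continuous capillaries of healthy heart, rose from 21.3 to 51.3 CPM at 1.38 (edgeR adjusted p = 0.0148), and Cd34 was at 0.15. The ETS factors Erg and Fli1, named after their values were seen because of the motif above, fell by 0.97 and 1.37 on the log2 scale. The summed level of the list was 2314 to 2653 CPM in sham and 1150 to 1591 CPM in MI libraries.

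All 7 genes of the capillary list fell, with a median of -2.07, against -0.97 for the 10 genes, a difference that was not tested. Car4, a membrane carbonic anhydrase, went from 87.1 to 8.86 CPM, at -3.34 (edgeR adjusted p = 0.000182), and the fatty acid carrier Fabp4 was at -1.87. Of 7 arterial genes 2 fell, the Notch ligand Dll4 at -1.88 and Efnb2 at -1.25, and the median was -0.14. Of 4 venous genes tested 2 fell, Aplnr at -1.17 and Ephb4 at -0.72, and the adhesion molecule Vcam1 rose by 0.95. No endocardial or lymphatic gene was called lower. Of 3 endocardial genes 2 rose, Cytl1 by 0.72 and Nfatc1 by 0.53, but Cytl1 was at 1.79 in fl/fl hearts and -0.36 in CKO hearts, and Npr3, not called, was at 2.13 and -1.24. Each of the Npr3 values rested largely on a single library. In fl/fl-MI it was at 31.9 CPM in library 1 and 212.6 CPM in library 2. In CKO-Sham it was at 104.5 CPM in library 1 and 40.8 CPM in library 2. Of 5 lymphatic genes 2 rose, the regulator Prox1 by 0.57 and Pdpn by 1.54. The vessel beds represented by these lists therefore had medians from -2.07 to 0.86, and the medians of the pan-endothelial genes and of the 10 genes lay between those of the capillary and arterial lists. With FPKM and TPM the median stayed below 0 for the capillary list (-1.55 and -1.01) and the pan-endothelial list (-0.59 and -0.078) but turned above 0 for the arterial list (0.17 and 0.61). The venous median went to -0.012 and 0.49, with 0 venous genes called lower on either scale. On FPKM 16 pan-endothelial genes were called lower and on TPM 5, where 5.97% and 1.98% of all tested genes were.

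Of the other VEGF axis genes, 3 of 7 tested fell and 1 rose, with a median of -0.53 that turned to 0.035 on FPKM and 0.57 on TPM, where 0 were called lower. The ligand Vegfb was at -0.82 (edgeR adjusted p = 0.0207), the co-receptor Nrp1 at -0.53 (edgeR adjusted p = 0.00672), and the lymphangiogenic ligand Vegfd rose from 2.70 to 9.08 CPM at 1.77 (edgeR adjusted p = 0.0162). On the angiopoietin side, the phosphatase Ptprb, which acts on TIE2, was at -1.02 and the shear-responsive factor Klf2 at -0.83, from 0.29 in fl/fl hearts (edgeR adjusted p = 0.45) and -1.94 in CKO hearts (edgeR adjusted p = 0.00589), while the matrix protein Svep1 rose by 2.13 and Foxo1, the factor that TIE2 signaling restrains, was at 0.12 (edgeR adjusted p = 0.39). Of 7 genes of sprouting tip cells 0 were called by edgeR or had an unadjusted p below 0.05 and 1 was called by DESeq2, the lowest adjusted p being that of Adm at 0.92 (edgeR adjusted p = 0.101). Hypoxia-linked genes were mixed, 5 of 11 rising and 2 falling, with Egln3 at 1.50 and Slc2a1 at 1.41 against Epas1, the endothelial hypoxia-inducible factor, at -1.35, and Ankrd37 at -1.74.

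Among 11 tested regulators of angiogenesis 4 rose and 2 fell, where 22.0% of all tested genes were called higher and 18.3% lower. The inhibitor Thbs1 rose from 42.9 to 281.5 CPM, at 2.71 (edgeR adjusted p = 0.00115), and the growth factor Fgf1 by 0.83, while Cxcl12 was at -1.74 and Pdgfb, the endothelial signal that recruits pericytes, at -1.81. Of 8 tested genes of endothelial hemostasis 2 rose and 2 fell, among them Selp, which is stored in the same granules as Vwf, at 1.12, thrombomodulin (Thbd) at -0.51 and Rab27a at -0.57, from 0.099 in fl/fl and -1.24 in CKO hearts. These granule and clotting genes thus went both ways where Vwf did not pass the test. Of the 136 list genes tested, each counted once and the 10 genes left out, edgeR called 0 between genotypes after MI and 0 between the sham groups, with 32 and 9 at an unadjusted p below 0.05, or 23.5% and 6.62% against 8.31% and 3.89% of all tested genes. DESeq2 called 13 and 2, or 9.56% and 1.47% against 1.48% and 0.242%. The 13 were Abcc9, Aplnr, Cd36, Gja5, Kcnj8, Klf2, Prox1, Sox18, Vcam1 and the 4 atrial genes Bmp10, Myl4, Myl7 and Sln. The atrial genes were those high in library 2 of fl/fl-MI. For the interaction of genotype and MI edgeR called 0 of the 136, with 28 at an unadjusted p below 0.05, or 20.6% against 8.49% of all tested genes. DESeq2 called 6, or 4.41% against 0.952%, namely Abcc9, Cytl1, Igfbp3, Klf2, Rab27a and Vcam1.

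**Figure D5:**
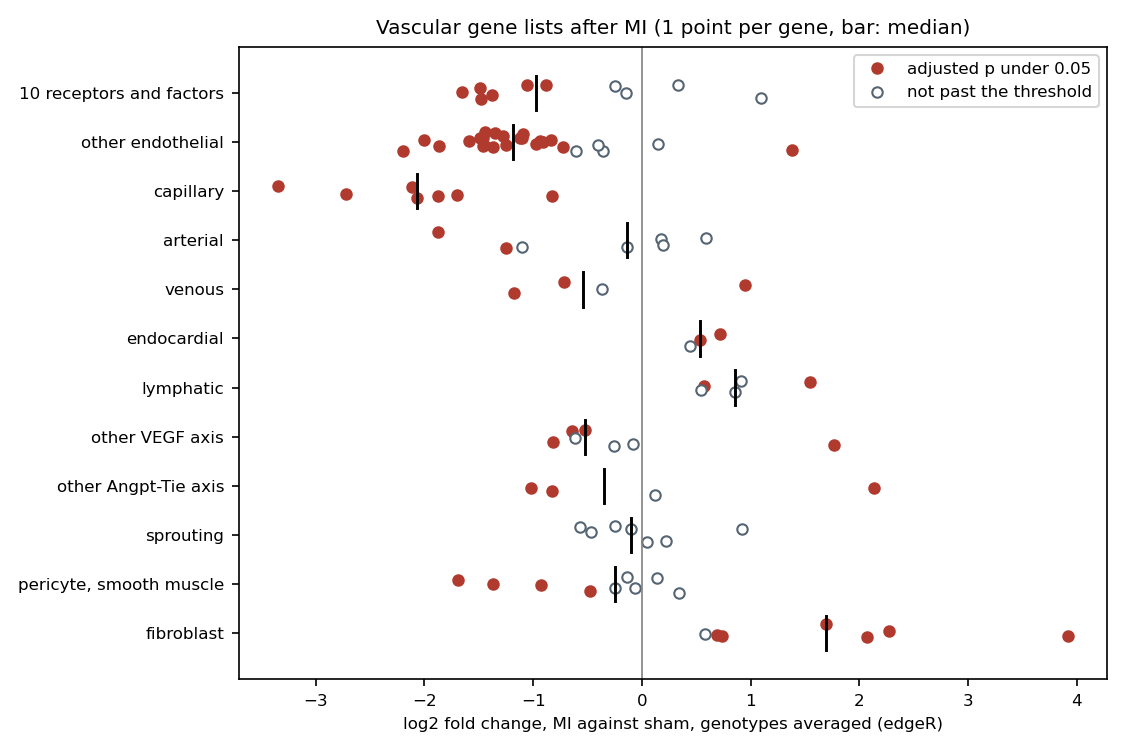
Log2 fold change after MI with genotypes averaged (horizontal axis, edgeR on TMM-scaled counts) for each gene of the 10 and of 11 lists of other genes, with filled points for an adjusted p below 0.05 and a bar at the median of each list. Medians run from -2.07 for capillary genes over -0.97 for the 10 genes to 1.70 for fibroblast genes.

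Markers of other cells moved at the same time. For comparison, 18.3% of all tested genes were called lower and 22.0% higher. Of 9 genes of pericytes and smooth muscle 4 fell, among them Rgs5 at -1.69 and Kcnj8 at -1.37, while Acta2 at 0.14 and Cspg4 at 0.34 were not called. Their median was -0.25, and it turned to 0.27 on FPKM and 0.80 on TPM. Their summed level was 1597 to 1732 CPM in sham and 657 to 982.8 CPM in MI libraries. Rgs5 alone had a mean of 1002 CPM in sham and 318.4 CPM in MI libraries. Of 7 fibroblast genes 6 rose, with Postn at 3.91 and Col1a2 at 2.07, and the sum went from 1336 to 1475 CPM in sham to 2089 to 6140 CPM in MI libraries. Of 6 macrophage genes 3 rose, led by Adgre1 at 1.14, and of 6 cardiomyocyte genes 2 rose and 1 fell, Ryr2 at 0.89, Actn2 at 0.69 and Tnni3 at -1.19. The 4 lymphocyte markers were below the filter, at a summed 2.73 to 5.56 CPM, and of 5 atrial genes 1 rose, Nppa at 4.50. The part of these shifts in cell markers in the level of the 10 genes was not tested.

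The genes whose pattern over the 8 libraries was nearest to each of the 10 were found by the root mean square difference of centered log2 CPM, among 5524 genes with a mean of at least 5 FPKM. For Cdh5 they were the junction gene Esam (0.0958), Tspan7 (0.105) and Flt1 (0.106), and for Flt1 the Notch ligand Jag2 (0.0665), Cdh5 (0.106) and mt-Nd2 (0.111). For Kdr they were Jag2 (0.116), Arap3 (0.134) and Flt1 (0.138), for Tie1 the transporter Abcb1a (0.113), Cox4i2 (0.124) and Shank3 (0.128), for Tek G0s2 (0.1), Cd38 (0.101) and Rgs3 (0.127), and for Pecam1 Smpd2 (0.0675), Mir5125 (0.0876) and Cyth1 (0.0927). The nearest gene to Vegfa was Fhl2 (0.0843) and to Angpt2 Fam76a (0.131). Angpt1 and Vwf had no close neighbor, the nearest being Podn at 0.266 and Gm10156 at 0.329. Only Flt1 and Cdh5 among the 10 named each other. These distances describe 8 libraries that share the contrast of sham and MI.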

How the data were processed

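Poly(A)-selected, paired-end RNA-seq was measured in 8 myocardial libraries. The authors deposited gene and transcript tables of estimated counts and of FPKM, and per the labels reads were trimmed with cutadapt 1.9 and inspected with FastQC, while the aligner, counter and genome build are not given in the sources used here. Gene IDs matched GENCODE M21 (GRCm38) for 99.7% and coordinates for 86.4% of genes, and for all 10 genes described. A library held on average 1106 genes with a count of 4, but 469 with 3 and 326 with 5, so counts divided by 4 were an alternative. Counting by strand is not stated, and antisense reads may be included.

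Counts, whole numbers as deposited, were fitted with the edgeR 4.0.16 quasi-likelihood test (R 4.3.3) with TMM, 1 mean per group, all 8 libraries and genes with a mean of at least 0.5 FPKM, and p-values were adjusted by Benjamini-Hochberg over 14028 genes with a threshold of 0.05. Total counts of 73821747 to 88117573 make counting error small beside the spread between libraries. Within-library ratios were tested by exact permutation in Python 3.11.15. Alternatives were DESeq2 1.42.0, limma 3.58.1 on log2(FPKM + 1) and log2(FPKM + 0.1), DESeq2 size factors, no filter, a mean of at least 5 FPKM, a replicate block, the 4 compared libraries alone and leaving out each library. TPM and a fit without mitochondrially encoded genes were chosen after seeing the data. Scripts were tested on simulated data.

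The 10 genes and all lists were chosen with earlier results of these data known. All 10 were named. Of each of 19 other lists the 2 genes with the smallest p in each direction were eligible, and for each of the 10 the 3 nearest genes in pattern. Promoters came from RefSeq. Per-sample columns not used numbered 0.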

Additional observations from a re-analysis of the deposited data

Results flagged for a closer look

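In 4 of the 20 sets of 4 sham or 4 MI libraries examined for the 10 genes, 1 library lay far from the other 3 by Dixon's criterion, which chance meets in about 1 of 20 sets. Among sham libraries Cdh5 was lowest in library 1 of CKO-Sham, at 326.3 CPM, with a gap of 0.859 of the whole range. Tek was highest in the same library, at 149.4 CPM (0.834 of the range). Vegfa was highest in library 2 of CKO-Sham, at 286.6 CPM (0.832 of the range). These sham values differ from their neighbors by amounts that are small beside the step from sham to MI for Cdh5 and Tek. Among MI libraries Angpt1 was at 146.4 CPM in library 2 of fl/fl-MI, a gap of 0.963 of the range, in the library that also held the high atrial genes.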

How the results depend on the processing

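With genotypes averaged, 6 of the 10 genes were lower after MI under every count-based alternative, and 7 without library 1 of CKO-MI. On log2(FPKM + 1) or log2(FPKM + 0.1), 5 were called lower and 1 higher, and on log2(TPM + 1) 3 and 3. Of all tested genes 5.97% were called lower and 50.1% higher on log2(FPKM + 1), and 1.98% and 76.7% on log2(TPM + 1). These scales move the median gene up, so signs near 0 turned, Vwf going to 0.34, 0.38 and 0.88 and Vegfa to 0.30, 0.30 and 0.86 on the 3 scales in turn, and on TPM Pecam1 to 0.22 and Tek to 0.052. In fl/fl hearts 1 gene was called higher with no filter and on each FPKM scale, 4 higher and 2 lower on TPM, and 1 lower with the 4 compared libraries alone. Of all 14028 tested genes, 9217 were called higher and 187 lower in fl/fl hearts on TPM, and 4801 and 454 on log2(FPKM + 1). Vegfa was 0.13, 0.13 and 0.70 in fl/fl hearts on the 3 scales, and on TPM Pecam1 was 0.32 and Tek 0.061. In CKO hearts 2 were called higher and 1 lower on TPM, where 8654 and 171 of all 14028 tested genes were. In these hearts Vegfa was 0.014 with no filter and 0.46, 0.47 and 1.03 on the 3 scales, Angpt1 0.31, 0.41 and 0.82, and on TPM Pecam1 was 0.13, Tek 0.044 and Vwf 0.0076. With a mean of at least 5 FPKM, where Angpt2 drops out, Kdr in sham was 0.0077, and with no filter the interaction of Tek was 0.0070.

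Leaving out each library in turn, the calls higher with genotypes averaged ran from 0 to 1, in fl/fl hearts from 0 to 1 higher and 0 to 6 lower, in CKO hearts from 0 to 6 lower, and between MI genotypes and for the interaction from 0 to 1 lower, the 1 being Angpt1 without library 1 of fl/fl-MI. Signs turned for Vwf (-0.54 to 0.20) and Angpt1 (-0.068 to 1.50) with genotypes averaged, for Angpt1 (-0.011 to 3.13) in fl/fl hearts, and for Vegfa (-0.39 to 0.18), Angpt1 (-0.41 to 0.092) and Angpt2 (-0.34 to 0.38) in CKO hearts. Between MI genotypes they turned for Pecam1 (-0.53 to 0.25), Cdh5 (-0.036 to 0.56), Flt1 (-0.041 to 0.53), Tek (-0.16 to 0.46) and Tie1 (-0.069 to 0.57), and between sham genotypes for Cdh5 (-0.099 to 0.013), Kdr (-0.097 to 0.070), Flt1 (-0.025 to 0.071), Angpt1 (-0.29 to 0.040) and Angpt2 (-0.036 to 0.28). The interaction turned for Pecam1 (-0.58 to 0.20), Flt1 (-0.065 to 0.51), Tek (-0.30 to 0.32) and Tie1 (-0.36 to 0.28), as did the log2 ratios Angpt2 to Angpt1 (-0.84 to 0.38) and Kdr to Cdh5 (-0.067 to 0.13). A dropped library leaves a group with 1, which is then assumed to vary like the others, and the cause of these turns was not tested.

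The replicate numbers do not pair the libraries, since deviations of same-numbered libraries correlated at -0.143 to 0.063 over 14028 genes. With the replicate number as a block, 6 of the 10 were still lower with genotypes averaged (Pecam1 at -0.89), 5 in fl/fl and 6 in CKO hearts.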
